A study of Mus musculus with 9 samples.

Results

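Voltage-gated sodium channels carry the rising phase of the action potential, and their subunit mRNAs were followed in dorsal root ganglia (DRG) after sciatic nerve injury. A listed set of 9 subunit genes, Scn1a, Scn3a, Scn8a, Scn9a, Scn10a, Scn11a, Scn2b, Scn3b and Scn4b, was looked up on the array by gene name, by older symbol and by RefSeq accession. For 8 of the 9 genes a probe was found, 15 probes out of 41174 in all, and every one of them is reported. Scn4b had no match and was not analysed here. The rule goes by name alone, though the genes were listed with earlier results of these data known.

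The samples were L3/L4 DRG of adult mice that carried wild-type Jun and no Cre (jun.wt and cre.neg in the labels), 4 from uninjured ("control") and 5 from injured ("lesion") ganglia. Injury was sciatic nerve transection and tissue was taken 3 days later per the labels and the methods, whereas the results text of the study gives a shorter interval and only one lumbar level. A legend of the study gives nerve crush in place of transection and the same number of samples in each condition, which the unequal groups here do not have. The labels name no sex, age in weeks or animal, so that the p-values below measure only the spread between these samples, which may be technical. For nerve crush read by other assays the methods took control ganglia from the opposite side, and for the arrays they say only that uncrushed DRG served as controls, so that the groups may share mice. Each DRG sample was labelled with Cy5 and hybridised beside a universal mouse reference RNA in Cy3, always in that orientation. The values given are the base-2 logarithm of Cy5 over Cy3, called log2 ratios below, and a log2 fold change is the mean of the injured minus the mean of the uninjured arrays.

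Sodium channels have a large alpha subunit, which forms the pore, and small beta subunits, which modify gating and surface level. In sensory neurons the alpha subunits are grouped by their response to tetrodotoxin, the pufferfish toxin that plugs the pore. Scn1a, Scn3a, Scn8a and Scn9a encode channels that the toxin blocks, whereas Scn10a and Scn11a encode the toxin-resistant channels typical of nociceptors. Scn9a amplifies small depolarisations near threshold, Scn8a is the main channel of the mature node of Ranvier, and Scn3a is best known from the embryonic nervous system.

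To show where transcription of the genes that fell begins, the 250 bases before each annotated start are printed 5′ to 3′ for Scn1a, Scn8a, Scn9a and Scn11a, with CpG dinucleotides in capitals. They are RefSeq sequences of build GRCm38.p6, at chr2:66440838-66441087 (minus strand) for Scn1a, chr15:100870395-100870644 and chr15:100936021-100936270 (plus strand) for the 2 annotated starts of Scn8a, chr2:66634963-66635212 (minus strand) for Scn9a and chr9:119825457-119825706 (minus strand) for Scn11a.
Scn1a: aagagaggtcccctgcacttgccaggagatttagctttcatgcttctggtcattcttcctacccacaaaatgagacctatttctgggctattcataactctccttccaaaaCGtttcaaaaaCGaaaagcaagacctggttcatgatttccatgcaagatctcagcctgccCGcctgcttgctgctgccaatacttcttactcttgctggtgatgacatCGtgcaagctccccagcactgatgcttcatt
Scn8a, first start: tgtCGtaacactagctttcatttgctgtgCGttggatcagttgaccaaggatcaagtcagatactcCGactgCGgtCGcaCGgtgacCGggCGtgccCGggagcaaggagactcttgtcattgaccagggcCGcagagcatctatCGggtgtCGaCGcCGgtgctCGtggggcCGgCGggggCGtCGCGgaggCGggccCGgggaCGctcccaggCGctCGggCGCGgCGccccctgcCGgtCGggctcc
Scn8a, second start: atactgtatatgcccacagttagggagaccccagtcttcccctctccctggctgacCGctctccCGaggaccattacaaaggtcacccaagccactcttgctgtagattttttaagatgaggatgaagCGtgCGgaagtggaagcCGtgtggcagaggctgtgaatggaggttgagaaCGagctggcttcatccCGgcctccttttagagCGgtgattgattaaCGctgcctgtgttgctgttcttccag
Scn9a: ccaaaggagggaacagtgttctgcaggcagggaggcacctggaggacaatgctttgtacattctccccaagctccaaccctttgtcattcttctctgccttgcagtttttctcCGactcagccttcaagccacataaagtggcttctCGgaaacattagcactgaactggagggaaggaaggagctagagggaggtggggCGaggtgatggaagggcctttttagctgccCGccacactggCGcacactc
Scn11a: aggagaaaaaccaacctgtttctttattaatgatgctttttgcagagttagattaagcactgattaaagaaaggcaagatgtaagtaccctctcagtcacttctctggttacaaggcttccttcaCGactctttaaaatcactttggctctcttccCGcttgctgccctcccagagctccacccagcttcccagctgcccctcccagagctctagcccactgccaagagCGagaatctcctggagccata
The windows of Scn1a, Scn9a and Scn11a held 4, 5 and 3 CpG, near or below the median of 6 over 32851 promoters, whereas those of Scn8a held 30 and 9. In all, 7 of the 9 genes matched, with 8 windows, and the other windows held 8 (Scn10a), 1 (Scn2b) and 23 (Scn4b) CpG. On both strands, with no overlap between motifs, the AP-1 motif TGANTCA was in 6.75% of all promoters, the cAMP response element TGACGTCA in 1.55% and the ATF4-type element TTGCATCA in 0.791%. None of the 8 windows held any of these letters.

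The tetrodotoxin-sensitive alpha subunits that could be measured were lower in injured DRG. Scn1a, Scn8a and Scn9a fell to between 67.9% and 77.6% of their uninjured ratio, on 4 of 4 probes. With slide as a fixed term in the fit none of these 3 genes passed, and with Agilent's own ratio Scn8a did not. Over all 31186 probes tested, limma called 23.5% different at an adjusted p under 0.05 and 13.0% lower, and in 12.5% every injured array lay below every uninjured array. Of the 15 sodium channel probes, 11 passed the filter for Cy5 signal above background on at least 4 arrays, and each of these 11 was above background on 9 of 9 arrays, so that no probe passed through its uninjured samples alone. Of the 11, 5 were called, all of them lower, and in the same 5 the groups did not overlap. All 11 had a log2 fold change below 0, with a median of −0.37, beside a median of −0.0045 over all probes tested. With each gene taken by its brightest probe, 4 of 7 genes were lower, beside 15.1% of 16497 genes in the same fit, and 0 were higher, beside 12.0%.

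**Figure D1:**
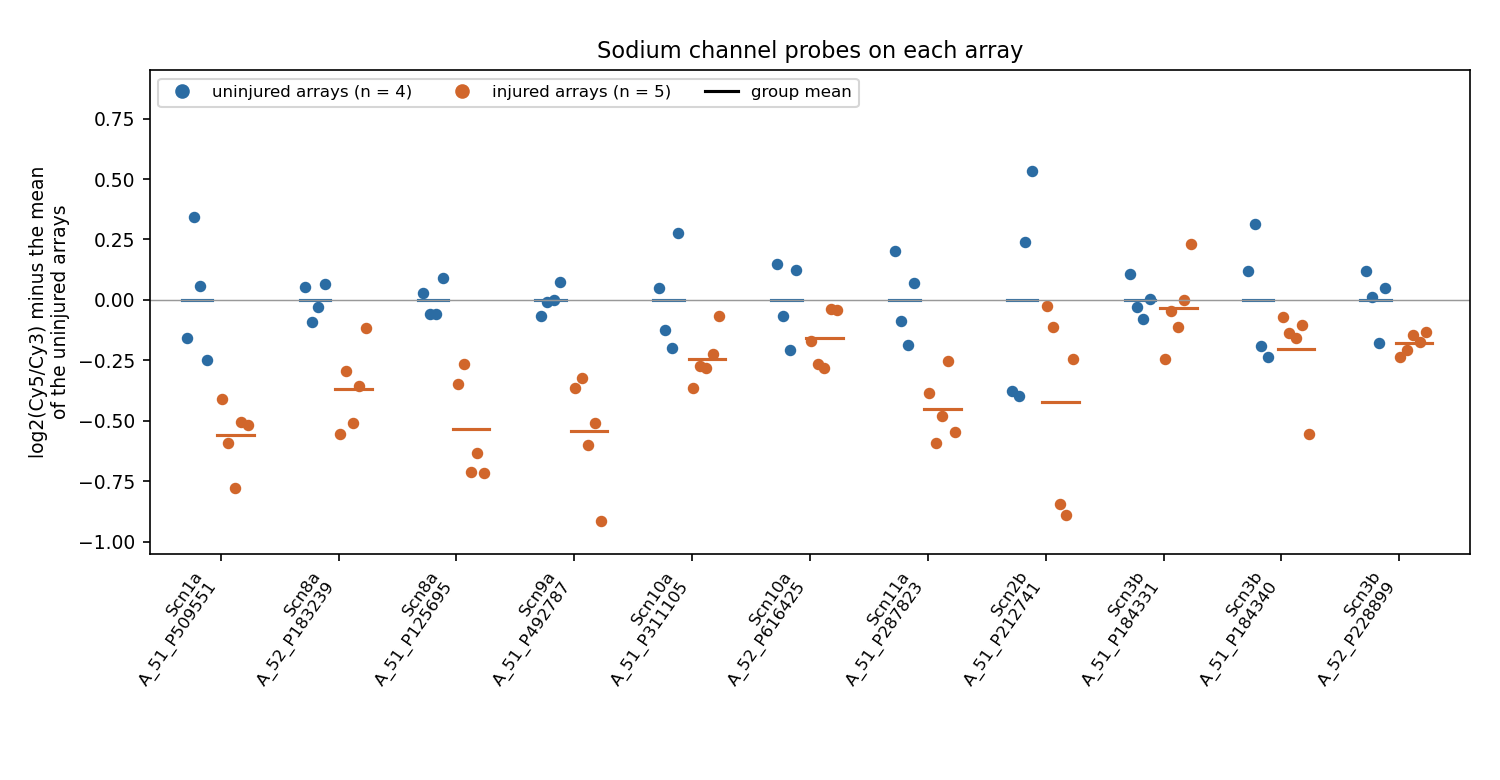
Log2 ratio of each tested probe on each array, minus the mean of the 4 uninjured arrays (vertical axis, log2 units; horizontal axis, gene and probe). Points are arrays and short lines are group means. For Scn1a, both Scn8a probes, Scn9a and Scn11a the 5 injured arrays lie below the 4 uninjured arrays, and for the other probes the groups overlap.

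Scn1a was read by probe A_51_P509551, on chromosome 2 from 66204312 to 66204371 (minus strand), where this and all probe positions refer to mouse build mm7. Its log2 ratio was 2.35, 2.85, 2.57 and 2.26 on uninjured arrays 1 to 4 and 2.10, 1.92, 1.73, 2.005 and 1.99 on injured arrays 1 to 5. The highest injured array thus lay just under the lowest uninjured one. The group means were 2.51 ± 0.263 (SD, n = 4) and 1.95 ± 0.138 (SD, n = 5), which differ by a log2 fold change of −0.56 (limma standard error, SE, 0.119 and adjusted p = 0.00656). Another Scn1a probe, A_51_P228351 (66279828 to 66279887), built on a cDNA (AK046001), was above background on 0 of 9 arrays and did not enter the test. The called Scn1a and Scn9a probes and the brighter Scn8a probe were likewise named by the symbol in the file, not by RefSeq. Without the filter the log2 fold change of A_51_P228351 was 0.043 (limma SE 0.0690 and adjusted p = 0.758).

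Scn8a had a pair of probes on chromosome 15 (plus strand). The brighter, A_52_P183239 (101026891 to 101026950), read 6.92, 6.78, 6.84 and 6.93 on the uninjured and 6.31, 6.57, 6.36, 6.51 and 6.75 on the injured arrays. Injured array 5 lay just under the lowest uninjured array, and the other injured arrays stood further down. The means were 6.87 ± 0.0740 (SD, n = 4) and 6.50 ± 0.175 (SD, n = 5), with a log2 fold change of −0.37 (SE 0.0902, limma adjusted p = 0.0138). The dimmer probe, A_51_P125695 (101025636 to 101025695), read 3.48, 3.39, 3.39 and 3.54 on the uninjured and 3.10, 3.19, 2.74, 2.82 and 2.74 on the injured arrays. Here injured arrays 3, 4 and 5 were the lowest, whereas on the brighter probe array 5 was the highest of the injured. This probe gave a log2 fold change of −0.53 (SE 0.103, limma adjusted p = 0.00372), from 3.45 ± 0.0734 (SD, n = 4) to 2.92 ± 0.213 (SD, n = 5).

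Scn9a, the channel whose loss in people abolishes the sense of pain, was read by probe A_51_P492787 on chromosome 2 from 66413602 to 66413661 (minus strand). Its log2 ratio was 2.08, 2.14, 2.15 and 2.22 on the uninjured and 1.78, 1.82, 1.55, 1.64 and 1.23 on the injured arrays. The uninjured arrays lay close together, and all injured arrays fell below them with a wider spread, array 5 lowest. The means were 2.15 ± 0.0587 (SD, n = 4) and 1.60 ± 0.236 (SD, n = 5), a log2 fold change of −0.54 (SE 0.110, limma adjusted p = 0.00505). The reference RNA gave no signal above background at this probe on any array, so the ratio here was set by Cy5 over a floor. Cy5 alone gave −0.51 (adjusted p = 0.00594). The size moved with the background correction, to −0.89 at an offset of 0 and −1.002 with Agilent's own ratio.

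Scn3a could not be followed. Its probes A_51_P148176, A_51_P398037 and A_52_P210781, on chromosome 2 from 65423859 to 65423918, 65388167 to 65388226 and 65392004 to 65392063 (minus strand), were above background on 1, 0 and 3 of 9 arrays. The last was above background on 2 uninjured and 1 injured array. Without the filter their log2 fold changes were −0.057, −0.088 and 0.041 (limma adjusted p = 0.621, 0.517 and 0.774). On A_51_P148176 uninjured array 4 had no value. At this signal a fall of Scn3a was not detectable, and on the injured arrays the 3 probes were above background on 0, 0 and 1 of 5.

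Of the toxin-resistant channels, Scn11a was lower in injured DRG and Scn10a did not pass the test. Scn11a carries a persistent current that sets the resting excitability of nociceptors. Its probe A_51_P287823, on chromosome 9 from 119449873 to 119449932 (minus strand), read 6.44, 6.15, 6.05 and 6.30 on the uninjured and 5.85, 5.64, 5.75, 5.98 and 5.69 on the injured arrays. Injured array 4 came closest to the uninjured range and stayed below it. From means of 6.23 ± 0.171 (SD, n = 4) and 5.78 ± 0.136 (SD, n = 5) the log2 fold change was −0.45 (SE 0.0952, limma adjusted p = 0.00624), which is 73.2% of the uninjured ratio. This call was the most dependent on background correction. With Agilent's own ratio the log2 fold change was −0.026 (limma adjusted p = 0.934), and with no offset added before the logarithm it was −0.17 (limma adjusted p = 0.442).

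Scn10a, which carries most of the inward current of the nociceptor action potential, had 2 probes on chromosome 9 (minus strand). The brighter, A_51_P311105 (119288245 to 119288304), read 4.63, 4.46, 4.38 and 4.85 on the uninjured and 4.21, 4.30, 4.30, 4.35 and 4.51 on the injured arrays. Of the injured arrays 4 lay below all uninjured arrays, and array 5 lay inside their range. The log2 fold change was −0.24 (SE 0.0997, limma adjusted p = 0.107), with a 95% interval from −0.46 to −0.022 before adjustment. The dimmer probe, A_52_P616425 (119288578 to 119288637), read 4.98, 4.77, 4.63 and 4.96 against 4.66, 4.57, 4.55, 4.79 and 4.79. Its log2 fold change was −0.16 (SE 0.0900, limma adjusted p = 0.240). The probes thus gave like values, neither past the threshold.

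**Figure D2:**
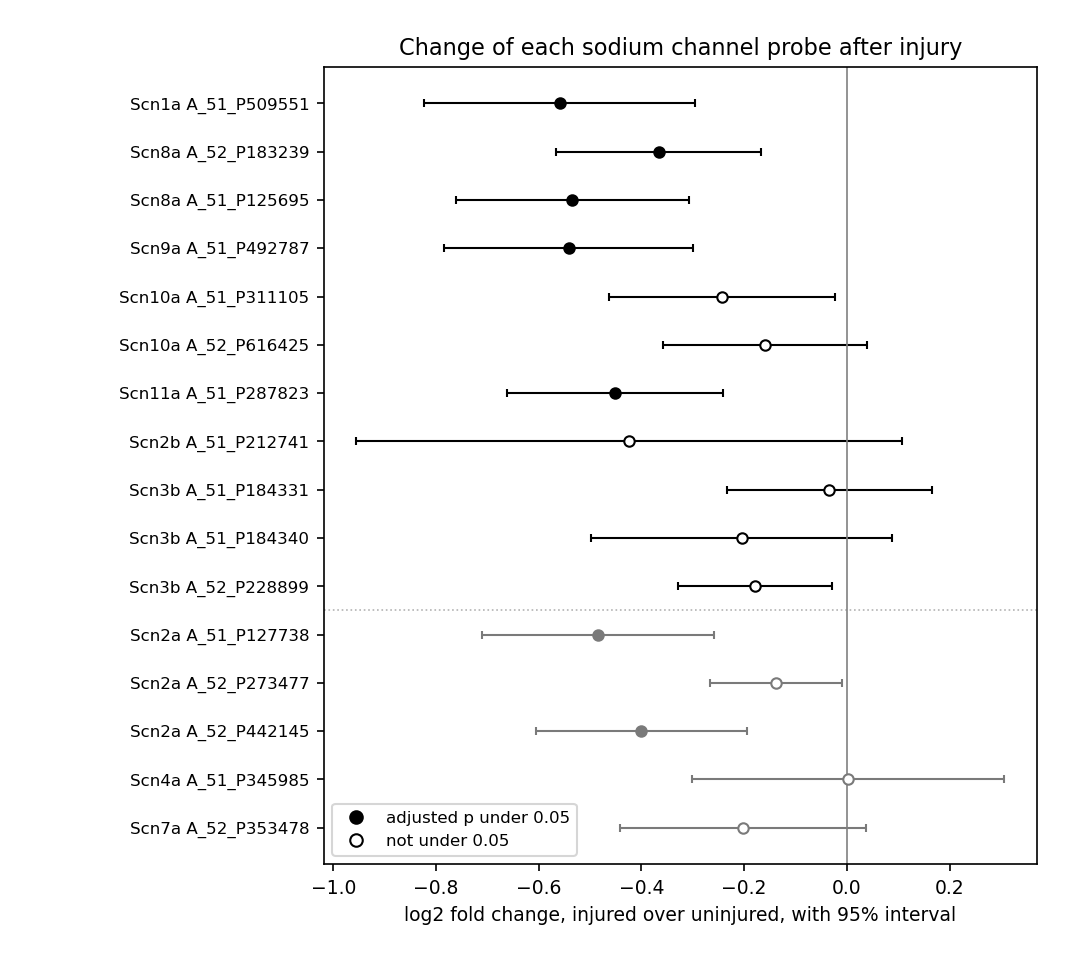
Log2 fold change of the tested probes of the listed subunits and of 3 other sodium channel genes, injured over uninjured (horizontal axis), with its 95% interval; filled points had a limma adjusted p under 0.05. Black points are the listed subunits and grey points, under the dotted line, Scn2a, Scn4a and Scn7a. The filled black points run from −0.56 (Scn1a) to −0.37 (Scn8a), and the filled grey points are Scn2a at −0.48 and −0.40.

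The beta subunits did not pass the test on any of 4 probes. Scn2b, whose product is linked to the alpha subunit by a disulfide bond, had a probe on chromosome 9 from 45064207 to 45064266 (A_51_P212741, plus strand) that read 4.11, 4.09, 4.73 and 5.02 on the uninjured and 4.46, 4.37, 3.64, 3.60 and 4.24 on the injured arrays. This was the widest spread of the 11 probes within the uninjured group, with an SD of 0.462, and the groups overlapped. Its log2 fold change of −0.42 (SE 0.241, limma adjusted p = 0.241) was near that of Scn11a but with a 95% interval from −0.96 to 0.11.

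Scn3b, a beta subunit that associates without a covalent bond, had 3 probes on chromosome 9 (plus strand). The brightest, A_51_P184331 (40221449 to 40221508), read 5.23, 5.09, 5.04 and 5.12 on the uninjured and 4.88, 5.07, 5.01, 5.12 and 5.35 on the injured arrays, where array 5 was the highest of all 9 and array 1 the lowest. The log2 fold change was −0.034 (SE 0.0904, limma adjusted p = 0.830), and the 95% interval ran from −0.23 to 0.17. The dimmer probes, A_51_P184340 (40220699 to 40220758) and A_52_P228899 (40212379 to 40212438), gave −0.20 (limma adjusted p = 0.305) and −0.18 (limma adjusted p = 0.0846), with reference signal above background on 0 and 4 arrays.

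For each probe alone, an exact permutation test (two-sided, over every way to divide the arrays into 4 and 5) gave p = 0.00794, the smallest p these group sizes allow, for Scn1a, Scn9a and Scn11a, and p = 0.0159 for both Scn8a probes. The exact test gave p = 0.0476 for the brighter Scn10a probe and p = 0.0397 for A_52_P228899 of Scn3b, neither of which passed limma's adjusted threshold, and between 0.143 and 0.730 for the other 4. Pairs of subunits were also compared with each other, as the difference of log2 ratios within each array. The log2 fold change of Scn10a lay 0.21 above that of Scn11a (p = 0.127) and 0.30 above that of Scn9a (p = 0.151), and that of Scn3b lay 0.39 above that of Scn2b (p = 0.262), from two-sided exact permutation tests. Adjusted over these 3 pairs p was 0.226, 0.226 and 0.262, so that no difference in change between subunits passed. A comparison of Scn3a with Scn8a was not run because no Scn3a probe was tested.

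The reference RNA is the same on every array and gives the background of the comparison. In Cy3 alone, 33 of 31684 probes were called by limma, and none of these 33 was a sodium channel probe. At an unadjusted p under 0.05 in limma there were 2820 probes. Yet the Cy3 difference, injured minus uninjured, was below 0 at 4 bright probes. It was −0.27 for Scn11a (SE 0.0813, limma adjusted p = 0.379) and −0.24 for A_52_P183239 of Scn8a (SE 0.0579, limma adjusted p = 0.239). For the Scn10a probes it was −0.18 and −0.32 (limma adjusted p = 0.688 and 0.517). At the 5 other probes tested in Cy3 it lay between −0.095 and −0.028. At those 4 probes the fall in Cy5 alone was larger than in the ratio, −0.72 for Scn11a and −0.65 for Scn8a, and for Scn10a −0.45 (limma adjusted p = 0.0226) and −0.48 (limma adjusted p = 0.0386), past the threshold. The part of the reference channel in these values was not tested.

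**Figure D3:**
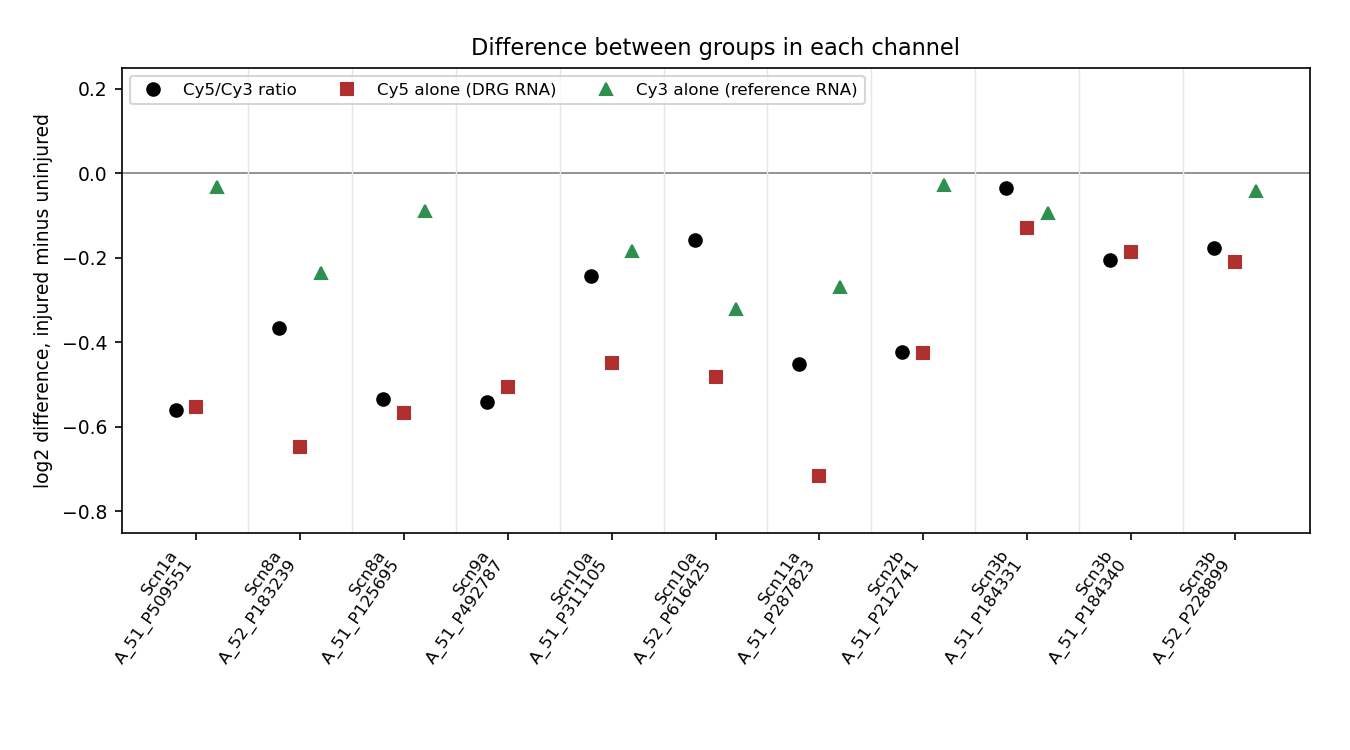
Difference between injured and uninjured arrays (vertical axis, log2 units) at each tested probe, for the Cy5/Cy3 ratio, for Cy5 alone and for Cy3 alone; a missing triangle means the probe was not tested in Cy3. For Scn1a, Scn2b and Scn9a the ratio and Cy5 alone lie together, and for Scn8a A_52_P183239, Scn10a and Scn11a Cy5 alone lies lower.

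The arrays lie on 3 slides, 3 uninjured on slide 1, uninjured array 1 with injured arrays 1, 2 and 5 on slide 2, and injured arrays 3 and 4 on slide 3. Only slide 2 holds both groups, with 1 uninjured array. For Scn11a that array read the highest of the uninjured arrays (6.44). Without it the Scn11a log2 fold change over all slides was −0.38. On slide 2 all 3 injured arrays were below the uninjured one at each called probe. This follows from the lack of overlap between the groups given above and is no separate check. The mean differences on that slide were −0.71 for Scn11a, −0.35 for Scn1a, −0.38 and −0.47 for the Scn8a probes and −0.47 for Scn9a. For Scn2b the direction turned, with all 3 injured arrays above the uninjured one and a mean difference of 0.25. With slide as a fixed term, which rests on these 4 arrays for the comparison, Scn11a passed limma's threshold and Scn1a (adjusted p = 0.404), Scn8a (0.250 and 0.168 for the brighter and the dimmer probe) and Scn9a (0.260) did not.

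Of 3 sodium channel genes outside the list, Scn2a was lower as well and Scn4a and Scn7a did not pass. All 5 of their probes were tested, of which 2 were lower, both of Scn2a, and 0 higher. Over all probes tested, 13.0% were called lower, and in 12.5% all injured arrays lay below all uninjured ones. Scn2a, a channel of central axons, read 2.86, 2.59, 2.80 and 2.79 on the uninjured and 2.44, 2.51, 2.39, 2.37 and 2.08 on the injured arrays at its brightest probe, A_52_P442145. All injured arrays lay below the uninjured ones, with a log2 fold change of −0.40 (SE 0.0933, limma adjusted p = 0.0106). Its other probes gave −0.48 at A_51_P127738 (limma adjusted p = 0.00612) and −0.14 at A_52_P273477 (limma adjusted p = 0.115). Scn7a, a sodium sensor rather than a voltage-gated channel, was at −0.20 (limma adjusted p = 0.214) and the skeletal muscle channel Scn4a at 0.0029, neither of which passed.

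Proteins that anchor or tune the channels were taken as a fixed list of 12 genes of the axon initial segment, node and FGF homologous factors. Of these 4 were lower, 0 higher and 8 did not pass, beside 15.1% lower and 12.0% higher over all genes, and the list median was a log2 fold change of −0.14. Lower were the paranodal adhesion molecule Cntn1 (−0.47, limma adjusted p = 0.00687), the cytosolic channel partners Fgf13 (−0.44, limma adjusted p = 0.00127) and Fgf12 (−0.33, limma adjusted p = 0.00858), and the ankyrin Ank2 (−0.27, limma adjusted p = 0.0378). The 8 that did not pass were Ank3 (0.041), Sptbn4, Nfasc, Nrcam, Cntn2, Cntnap1, Fgf11 and Fgf14, between −0.17 and 0.35. Of 11 genes of channel trafficking and turnover, the ubiquitin ligase Nedd4l (−0.51, limma adjusted p = 0.00976) and the scaffold Magi1 (−0.38, limma adjusted p = 0.00652) were lower, S100a10, the annexin partner that carries the Scn10a product to the membrane, was higher (0.37, limma adjusted p = 0.0162), and 8 did not pass, shares near those over all genes. The list for the pump, exchangers and leak that handle sodium had 11 tested genes, and its leak channel was not among them. The pump subunits Atp1b1 (−0.45, limma adjusted p = 0.000937) and Atp1b3 (−0.28, limma adjusted p = 0.0300) were lower and none higher, with a list median of 0.0023. The share lower in the pump list was also near that over all genes.

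**Figure D4:**
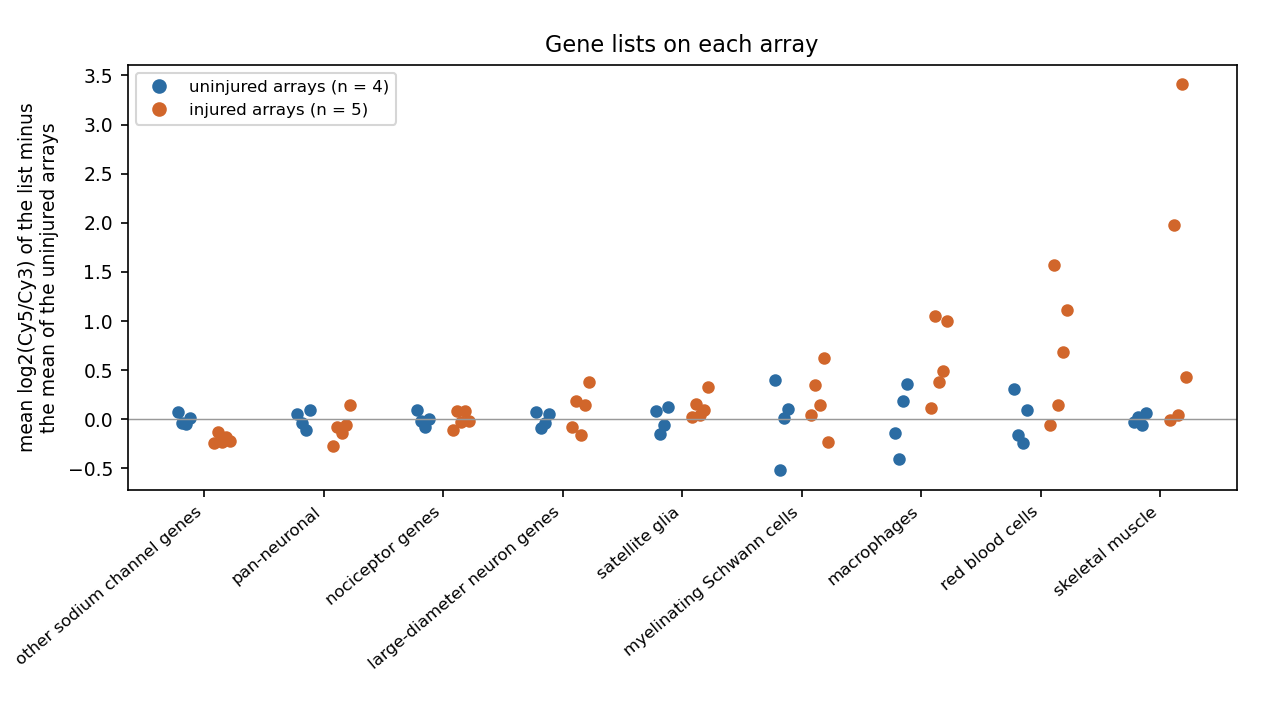
Mean log2 ratio of each gene list on each array, minus the mean of the uninjured arrays (vertical axis, log2 units), for other sodium channel genes and for markers of the cell types that a ganglion or its surroundings hold. The mean of the other sodium channel genes (Scn2a, Scn4a and Scn7a) lies between −0.24 and −0.13 on the injured arrays, below all uninjured ones. For Scn4a and for Scn7a taken alone the groups overlapped. The skeletal muscle list reaches 1.98 and 3.41 on injured arrays 2 and 4.

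In a whole ganglion, fewer neurons and less mRNA per neuron cannot be told apart. All 14 genes of the pan-neuronal list had Cy5 signal enough to be tested. Of them Isl1 (−0.49, limma adjusted p = 0.000262), Syt1 (−0.31, limma adjusted p = 0.0301) and Elavl4 (−0.28, limma adjusted p = 0.00928) were lower, and 0 were higher. Over all genes, 15.1% were lower and 12.0% higher. The 11 that did not pass went both ways, between −0.27 and 0.24, and the list median was −0.051. The mean of that list was between −0.11 and 0.09 on the uninjured and between −0.27 and 0.14 on the injured arrays. With each array's pan-neuronal mean subtracted, a step added after the data were seen, Scn8a was at −0.29 and −0.45 and still passed on both probes (limma adjusted p = 0.0441 and 0.0490), whereas Scn1a (−0.48, limma adjusted p = 0.0547), Scn11a (−0.37, limma adjusted p = 0.0621) and Scn9a (−0.46, limma adjusted p = 0.0720) no longer did. Of the nociceptor markers, 4 of 6 were tested and 0 were called, with a median of −0.014. Of 5 large-diameter neuron markers only Spp1 was called, and it was higher (0.58, limma adjusted p = 0.0139).

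Some markers of other cell types differed as well. Macrophage markers were higher for 3 of 12 genes, Aif1 (0.90), Cd14 (0.83) and Itgam (0.50). The 9 that did not pass lay between 0.26 and 0.82, and the list median was 0.64. The list mean was between −0.41 and 0.36 on uninjured and between 0.12 and 1.05 on injured arrays. Of 6 satellite glia markers, Glul (0.78) and Slc1a3 (0.22) were higher, and the 4 that did not pass lay between −0.11 and −0.0079. The median of that list was −0.012. Of 8 myelin genes 0 were called, with log2 fold changes between −0.15 (Ncmap) and 0.74 (Mag). Over all genes, 12.0% were called higher. None of the 9 muscle and 4 tested red blood cell genes was called, though injured arrays 2 and 4 had a muscle list mean of 1.98 and 3.41, and injured arrays 2 and 5 a red cell list mean of 1.57 and 1.11, relative to the uninjured mean. Scn4a, the muscle channel, read 0.45 and 0.70 on injured arrays 2 and 4, inside the range of 0.41 to 0.84 on uninjured arrays. Whether its probe responds to muscle RNA was not tested. With both muscle-high arrays, injured 2 and 4, left out together, a step added after the data were seen, 4 of the 5 sodium channel probes still passed and the brighter Scn8a probe was at −0.39 (limma adjusted p = 0.0541). With injured arrays 2 and 5 left out together, likewise added later, all 5 passed. The macrophage list mean was between 0.12 and 1.05 on the injured arrays, and its part in the falls was not tested.

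Across the 9 arrays the brighter Scn10a probe tracked those of Eif5a2 (Pearson r = 0.973), Zfp114 (0.966) and Cyp4f15 (0.964) most closely among other genes with a symbol, which is a description over arrays that share the injury contrast. Eif5a2, an isoform of a translation factor, fell by 0.34 on the log2 scale (limma adjusted p = 0.0345).

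**Figure D5:**
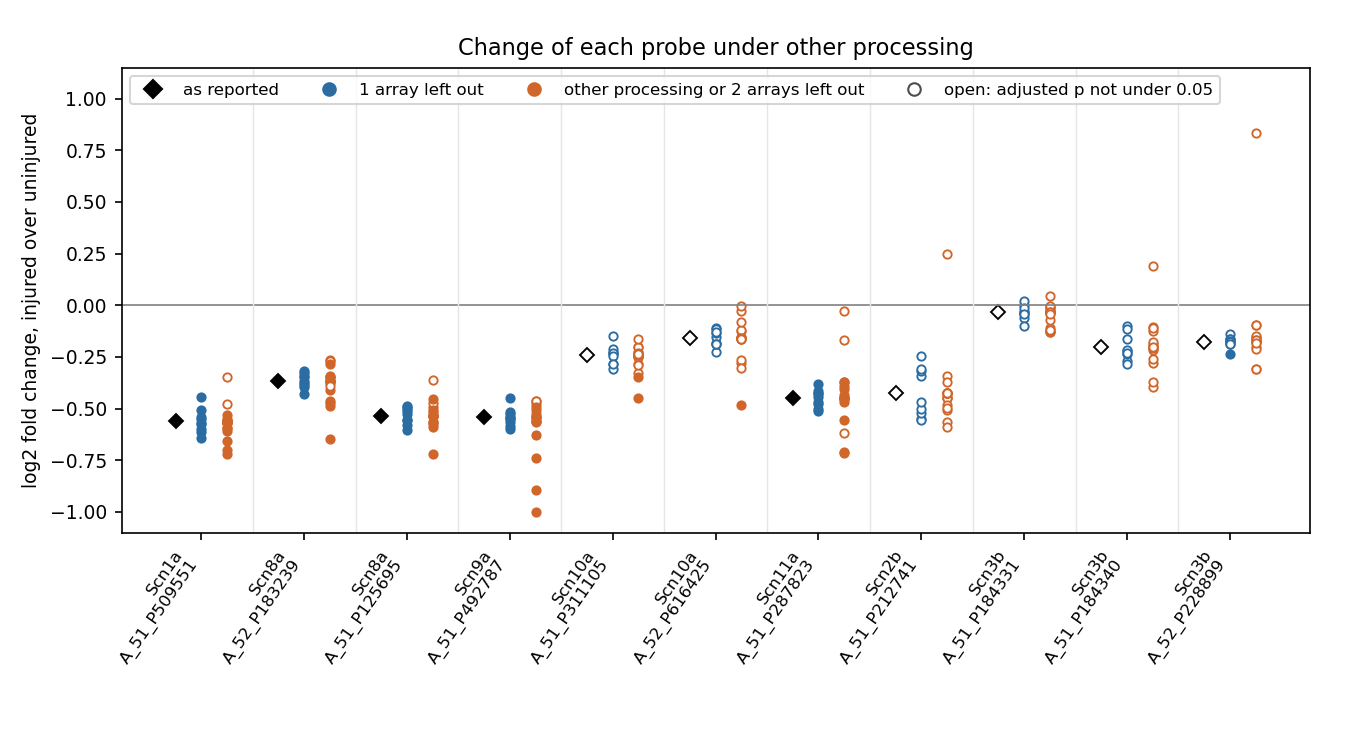
Log2 fold change of each tested probe as reported (black diamonds), with 1 array left out (blue), and under other processing or with 2 injured arrays left out (orange); open symbols had an adjusted p not under 0.05. The 5 called probes stay below 0 throughout, with Scn11a nearest to it at −0.026, and A_52_P228899 of Scn3b turns to 0.83 with Agilent's own ratio.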

How the data were processed

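The 9 arrays are 2-colour Agilent whole mouse genome arrays. The deposited scanner intensities give, for each channel, a spot mean and a local background median, read with Agilent Feature Extraction 10.5.1.1. The log10 ratios in the same files carry, per the file headers, that software's own background and dye correction. The authors' processed values are log2 ratios, and their processing notes name limma. On each array the log2 ratios computed here had a slope between 1.00 and 1.01 against them.

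Spots marked non-uniform (2 to 26 per array) were left out, background was corrected with normexp (offset of 50), ratios were normalized by loess within arrays and repeated spots averaged (limma 3.58.1, R 4.3.3). With all spots kept, the slope on injured array 2 was 0.813. Probes whose Cy5 was well above background on 4 or more arrays (31186 of 41174) entered limma's moderated test with Benjamini-Hochberg adjustment. Names came from RefSeq accessions for 23075 probes, from the symbol in the file for 6582 and from an older name for 3077, and 8440 kept the file's name. A gene was represented by its brightest tested probe. From each list the text names at most 4 called genes with the largest change, some genes that did not pass, and Scn2a, Scn4a and Scn7a whatever their values. Some genes of the lists are not reported here, and the list counts and means leave them out. Median Cy5 signal was between 200 and 231 on uninjured and between 156 and 238 on injured arrays, with 71.0% to 78.9% of spots above background. The number of arrays limits the precision.

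Members, lists and tests were chosen with earlier results of these data known. Probe sequences were not used here, so that cross-hybridisation between these related genes was not tested, and without an annotation of build mm7 the exon of each probe is not given. The alternatives tried were other background corrections, median centring, Agilent's ratio, the authors' values, Cy5 alone, other filters, slide as a fixed or random block, array weights, the brightest probe per gene, a test without a shared variance, subtraction of the pan-neuronal mean and leaving out each array or, added after the data were seen, injured arrays 2 and 4 or 2 and 5 together. The procedure was tested on simulated data with 200 of 31142 probes changed. It recovered 71% of them at a log2 change of 0.5 and 94% at a change of 1. The changes at Scn10a, Scn2b and Scn3b were smaller than 0.5. Figures used Python 3.11.15 and matplotlib 3.10.9.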

Additional observations from a re-analysis of the deposited data

Results flagged for a closer look

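Among 46 groups of arrays examined, 1 held an array that stood apart from the rest of its group by Dixon's test, and chance gives about 1 in 20. It was the dimmer Scn3b probe A_51_P184340, which read 1.43 on injured array 5 and between 1.83 and 1.91 on the other injured arrays. At the brightest Scn3b probe the same array was the highest of the injured, at 5.35.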

How the results depend on the processing

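No paired analysis was possible because sample numbers here follow accession order only and tie no injured to an uninjured ganglion. All 5 called probes kept their direction under every alternative run, and leaving out each array in turn kept all 5 calls. The count of 4 sodium channel genes called was 2 with an offset of 0 and with Agilent's ratio, 1 with slide as a fixed block (Scn11a) and 1 with the pan-neuronal mean subtracted (Scn8a). Scn11a was also lost with all spots kept (−0.62, limma adjusted p = 0.0654), and Scn8a with Agilent's ratio at both probes (limma adjusted p = 0.138 and 0.0857) and with an offset of 0 at the brighter one (limma adjusted p = 0.134). The brighter Scn10a probe passed with median centring (−0.35), Cy5 alone (−0.45) and slide as a random block (−0.23). The difference between Scn10a and Scn11a turned to −0.032 with an offset of 0 and −0.18 with Agilent's ratio, and reached 0.27 (exact permutation, adjusted p = 0.0476) in Cy5 alone. Scn3b turned to 0.19 and 0.83 at its dimmer probes with Agilent's ratio, and at the brightest to 0.045 with the pan-neuronal mean subtracted and to between −0.10 and 0.018 with an array left out, above 0 without uninjured array 1 or injured array 1. A_52_P228899 passed without uninjured array 3 (−0.24). Scn2b turned to 0.25 with slide as a fixed block. The 7338 probes called became 3523 with median centring, 1505 with slide as a fixed block, 4634 with 1 probe per gene and 4195 with the pan-neuronal mean subtracted, and the share of calls that were lower, 55.4%, became 44.4% with the slide block and 26.7% with that mean subtracted. With injured arrays 2 and 4 left out, 4040 probes and 3 sodium channel genes were called. Calls in the reference channel ranged from 10 to 109 as each array was left out. The cause of these shifts was not tested.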

Other observations

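Between the probes of the neighbouring genes Scn10a and Scn11a, and between those of Scn1a and Scn9a, the array holds 4 probes that the files name only by a cDNA or clone. AK051134, on chromosome 9 of build mm7 from 119367156 to 119367215 on the same strand as Scn10a and Scn11a, read 1.26, 1.05, 1.04 and 1.02 on the uninjured and 0.78, 0.60, 0.73, 0.59 and 0.47 on the injured arrays. All injured arrays were lower, and its log2 fold change was −0.46 (limma adjusted p = 0.00192). AK039017, on chromosome 2 from 66371504 to 66371563 and on the strand opposite to Scn1a and Scn9a, was also lower, at −0.33 (limma adjusted p = 0.0117). A230059G12Rik was at −0.28 (limma adjusted p = 0.0657), and AK079544 was above background on 0 arrays. These probes were picked by position. Whether any of them reads a transcript of a sodium channel gene was not tested.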
